A study of Mus musculus with 3 samples.

Results

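The insulin-like growth factor (IGF) system was followed through 7 genes, the ligand gene Igf1, the receptor gene Igf1r and the binding protein genes Igfbp2, Igfbp3, Igfbp4, Igfbp5 and Igfbp7, chosen by name from the 27998 genes counted in mouse fetal thymus. The data were 3 droplet single-cell RNA libraries, 1 per genotype, made from thymic lobes of C57BL/6 embryos at E13-E13.5 after a controlled digestion with trypsin. The control library came from wild type (Tbx1+/+) embryos. The second library carries the label Tbx1neo2/neo2, a genotype homozygous for a hypomorphic Tbx1 allele with a neomycin resistance cassette in an intron, used as a mouse model of 22q11.2 deletion syndrome. The third came from Foxn11089/1089 embryos, homozygous for a small in-frame deletion in Foxn1, the gene of the transcription factor that thymic epithelial cells need. Both mutations are carried by every cell of the embryo, and the number of embryos pooled per library is not given in the sources used here. Because each genotype was measured once and the same control library serves both comparisons, no difference between genotypes could be tested, and every interval below covers counting error only.

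IGF1 is a secreted growth factor made largely by mesenchymal cells, and it acts on neighbouring cells through the receptor tyrosine kinase IGF1R, whose signal passes through IRS proteins to the PI3K and AKT pathway. IGF-binding proteins hold the ligand in the extracellular space and either withhold it from the receptor or carry it to the cell surface, and secreted proteases such as PAPPA and HTRA1 cleave them. IGFBP7 binds IGFs weakly and is known mainly as a matrix protein of blood vessels. In the fetal thymus, mesenchymal cells surround the epithelial rudiment and are a source of growth factors for it.

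The members lie on 5 chromosomes of the mouse build GRCm38. Igf1 (ENSMUSG00000020053) spans chr10:87858265-87937042, Igf1r (ENSMUSG00000005533) spans chr7:67952827-68233668 and Igfbp7 (ENSMUSG00000036256) spans chr5:77349240-77408041. Igfbp4 (ENSMUSG00000017493) lies at chr11:99041244-99054392 and Igfbp3 (ENSMUSG00000020427) at chr11:7206086-7213923. Igfbp2 (ENSMUSG00000039323, chr1:72824503-72852474, plus strand) and Igfbp5 (ENSMUSG00000026185, chr1:72857932-72874884, minus strand) are neighbours that end 5457 bases from each other. All 7 genes matched the RefSeq promoter entries of GRCm38.p6, each 250 bases before to 50 bases after a transcription start. The promoters of the 4 binding protein genes whose epithelial levels differed by at least 2-fold between the Foxn11089/1089 and control libraries are printed 5′ to 3′ on the strand of the gene, at chr1:72824230-72824529 (Igfbp2), chr11:7213874-7214173 (Igfbp3), chr11:99040994-99041293 (Igfbp4) and chr1:72874816-72875115 (Igfbp5). Capitals mark matches, on either strand, to GACGC (the core recognised by FOXN1), GGTGTGA (the T-box core), GGGCGG (the GC box) or TATAAA (the TATA box).
Igfbp2: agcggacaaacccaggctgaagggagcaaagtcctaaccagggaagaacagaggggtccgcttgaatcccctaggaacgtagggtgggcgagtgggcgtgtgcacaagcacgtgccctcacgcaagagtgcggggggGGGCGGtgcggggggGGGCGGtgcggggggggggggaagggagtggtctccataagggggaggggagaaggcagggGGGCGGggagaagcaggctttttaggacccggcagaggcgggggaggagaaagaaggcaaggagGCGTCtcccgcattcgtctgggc
Igfbp3: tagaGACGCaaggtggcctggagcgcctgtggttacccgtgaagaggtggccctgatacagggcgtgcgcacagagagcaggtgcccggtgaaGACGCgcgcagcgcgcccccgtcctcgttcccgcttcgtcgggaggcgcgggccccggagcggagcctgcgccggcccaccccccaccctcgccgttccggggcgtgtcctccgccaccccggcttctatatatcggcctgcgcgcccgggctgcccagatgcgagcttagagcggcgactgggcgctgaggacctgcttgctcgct
Igfbp4: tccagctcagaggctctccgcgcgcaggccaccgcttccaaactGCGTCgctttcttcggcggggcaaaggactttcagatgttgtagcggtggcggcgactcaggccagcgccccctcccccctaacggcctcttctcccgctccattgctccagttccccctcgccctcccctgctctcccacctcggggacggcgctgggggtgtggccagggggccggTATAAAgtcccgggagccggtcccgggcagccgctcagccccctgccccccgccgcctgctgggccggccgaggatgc
Igfbp5: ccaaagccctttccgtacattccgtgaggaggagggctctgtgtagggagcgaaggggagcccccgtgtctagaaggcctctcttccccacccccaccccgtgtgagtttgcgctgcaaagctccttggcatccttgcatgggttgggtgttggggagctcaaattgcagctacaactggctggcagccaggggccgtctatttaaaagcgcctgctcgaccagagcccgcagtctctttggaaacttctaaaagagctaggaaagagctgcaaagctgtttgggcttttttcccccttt
GACGC occurred in these windows of Igfbp2, Igfbp3 and Igfbp4 and in that of Igf1r, and in 27.2% of the 32851 promoters of the table. Igfbp5 and Igf1 held none of the 4 motifs in their windows, and GGTGTGA, present in 3.98% of all promoters, was found in no window of the 7 genes. TATAAA was found 28 bases before the start of Igfbp4, and 13.6% of all promoters held it. The second RefSeq entry of Igfbp2 held none of the 4 motifs. GGGCGG, present in 35.7% of all promoters, was found in Igf1r, Igfbp2 and Igfbp7. The printed windows had a GC content of 67.0% in Igfbp2, 71.7% in Igfbp3, 71.3% in Igfbp4 and 56.3% in Igfbp5, against a median of 52.7%. A match describes the letters of the window, not binding.

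Cells were grouped by 4 class genes, Pdgfra (mesenchymal), Epcam (epithelial), Cdh5 (endothelial) and Ptprc (hematopoietic). A cell entered a class with at least 2 UMIs (unique molecular identifiers, counted RNA molecules) of the class gene that made up at least 80% of its UMIs of the 4 genes. The control library, the library labelled Tbx1neo2/neo2 and the Foxn11089/1089 library gave 663, 1339 and 2265 Pdgfra-positive cells, 1985, 809 and 4082 Epcam-positive cells, 51, 94 and 108 Cdh5-positive cells and 578, 299 and 319 Ptprc-positive cells. In each library, all 6 further marker genes checked were highest in the class they mark. Tbx1 itself reached 1.39, 4.81 and 5.43 CPM (UMIs per 1000000) in the whole libraries, so its counts were not lower in the library labelled Tbx1neo2/neo2. The paper states that the embryonic thymus does not express Tbx1, and counts this low do not check the genotype. Foxn1 reached 38.4, 34.6 and 76.5 CPM, and its counts do not check the Foxn11089 allele, whose transcript is still counted. Median UMIs per Epcam-positive cell were 16582, 46025 and 20964.5, and the libraries shared between 17 and 28 cell barcodes in pairs. The median gene of a class stood 0.36 to 0.44 (log2) above control in the library labelled Tbx1neo2/neo2 and 0.17 to 0.30 above in the Foxn11089/1089 library. Red cells, at least 50% of whose UMIs come from hemoglobin genes, show the level that free RNA can give, and their values stand beside low levels below. Levels are CPM of the summed UMIs of a class, listed as control, Tbx1neo2/neo2-labelled and Foxn11089/1089, and ratios are log2 over control with a 95% counting interval. Because 3′ UMIs were not divided by length, levels are compared between cells and not between genes.

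The class with the highest level differed between members. Igf1 and Igfbp5 were highest in Pdgfra-positive cells, Igf1r in Epcam-positive cells, and Igfbp3 and Igfbp4 in Cdh5-positive cells, in all 3 libraries. The leading class of Igfbp2 and Igfbp7 changed between libraries, and Ptprc-positive cells led for no member. A difference of at least 2-fold with at least 30 UMIs over both libraries is counted here as a large difference. In Pdgfra-positive cells 3 of 7 members (Igf1r, Igfbp2 and Igfbp5, all higher) passed it in the library labelled Tbx1neo2/neo2, against 20.8% of all genes, 17.3% higher and 3.54% lower. In the Foxn11089/1089 library 2 of 7 did (Igfbp5 higher and Igfbp7 lower), against 10.6% of all genes, 6.33% higher and 4.26% lower. In Epcam-positive cells 2 of 7 (Igf1r and Igfbp5, both higher) passed it in the library labelled Tbx1neo2/neo2, against 21.5%, 16.9% higher and 4.57% lower. The Foxn11089/1089 epithelium differed in 5 of 7 members, Igf1, Igfbp4 and Igfbp5 higher and Igfbp2 and Igfbp3 lower, against 26.5%, 19.0% higher and 7.52% lower. In Cdh5-positive cells of the library labelled Tbx1neo2/neo2, 4 of 7 (Igf1r and Igfbp5 higher, Igfbp3 and Igfbp7 lower) passed it, against 30.4%, 26.4% higher and 4.04% lower. In those of the Foxn11089/1089 library 2 of 7 (Igfbp5 higher, Igfbp7 lower) passed it, against 20.4%, 16.0% higher and 4.41% lower. A single cell held 175 of the 269 Igfbp5 UMIs there. In Ptprc-positive cells Igf1 and Igfbp5 were higher and Igfbp7 lower in both comparisons. They were 3 of the 6 members with enough UMIs in the library labelled Tbx1neo2/neo2, against 16.1%, 13.3% higher and 2.81% lower, and 3 of 5 in the Foxn11089/1089 library, against 16.8%, 11.4% higher and 5.40% lower. A single Ptprc-positive cell held 36 of the 79 Igfbp5 UMIs in the Foxn11089/1089 library and 11 of the 31 in control. The count of 2 of 7 is near the background share in Epcam-positive cells of the library labelled Tbx1neo2/neo2 and in Cdh5-positive cells of the Foxn11089/1089 library.

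**Figure D1:**
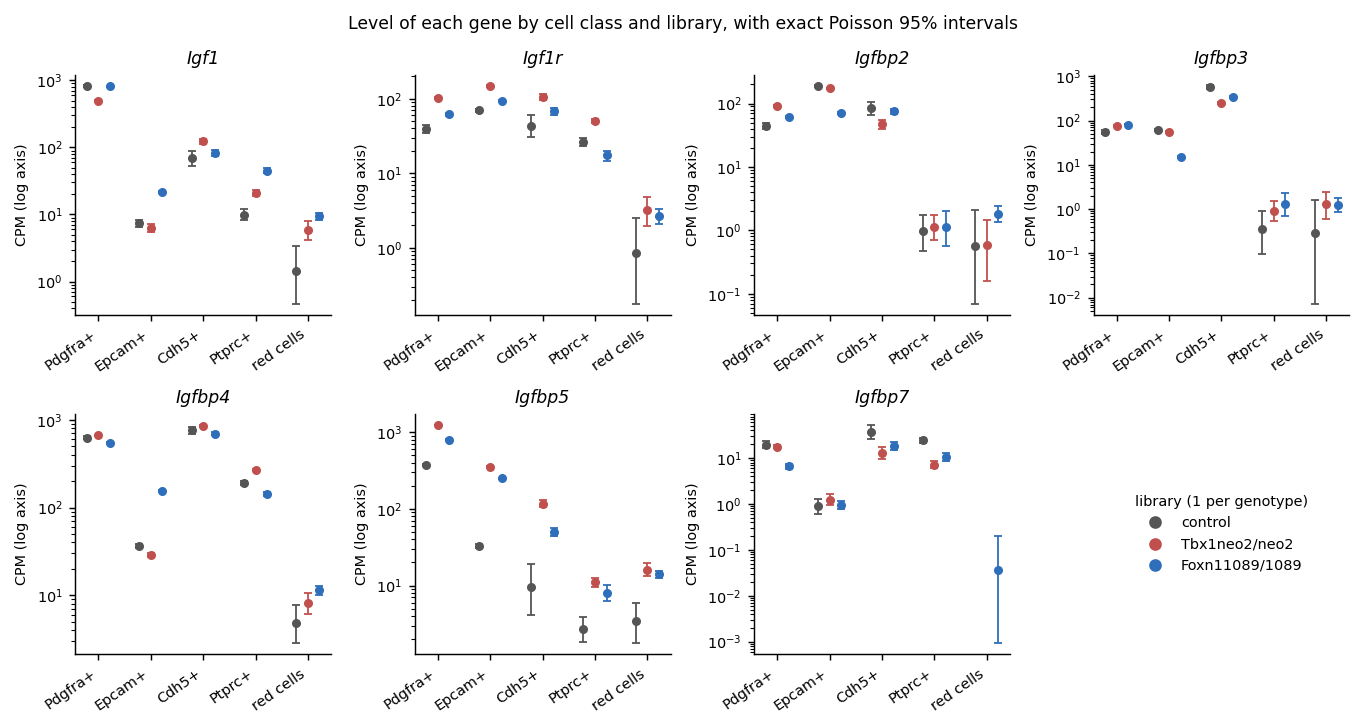
Level of each of the 7 genes (CPM of summed UMIs, log axis) by cell class and library, with red cells beside them and bars for 95% counting intervals. No point is drawn where a class held 0 UMIs. Igf1 and Igfbp5 are highest in Pdgfra-positive cells and Igfbp3 and Igfbp4 in Cdh5-positive cells in each of the 3 libraries.

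Igf1, the ligand, was highest in Pdgfra-positive cells among the 4 classes, and unclassed cells held 165, 123 and 390 CPM. Pdgfra-positive cells held 819, 496 and 820 CPM, above Cdh5-positive cells at 69.0, 124 and 82.0, Ptprc-positive cells at 9.94, 20.9 and 45.2 and Epcam-positive cells at 7.36, 6.30 and 21.6. The order of the classes was the same in the 3 libraries, and the mesenchymal level was 11.9, 4.02 and 9.99 times the endothelial one. Mesenchymal Igf1 was therefore alike in the control and Foxn11089/1089 libraries and lower in the library labelled Tbx1neo2/neo2 (log2 -0.72, interval -0.77 to -0.68), a difference under 2-fold. Relative to the median of all genes in the class, Igf1 was at -1.10 in the library labelled Tbx1neo2/neo2, past 2-fold, and at -0.17 in the Foxn11089/1089 library. The share of Pdgfra-positive cells with an Igf1 UMI was 79.8%, 76.3% and 94.3%, and 61.0%, 45.1% and 68.2% after each cell was thinned to 2000 UMIs.

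Mesenchymal cells were divided by genes that mark cell states. Cells with at least 2 contractile genes (smooth muscle genes) made up 16.7%, 20.4% and 15.5% of the class, but the sets were unlike in content. Acta2, the smooth muscle actin gene, stood in them at 299, 1467 and 264 CPM, and Rgs5, a pericyte gene, at 32.8, 544 and 36.3 CPM, so the set of the library labelled Tbx1neo2/neo2 was the more strongly contractile one and levels inside the sets do not describe one cell type. Within that set Igf1 stood at 740, 222 and 665 CPM, and outside it at 834, 582 and 848 CPM. Outside the set the ratio of the library labelled Tbx1neo2/neo2 was -0.52, against -0.72 for the whole class. Cycling cells held 514, 298 and 544 CPM, below the remaining mesenchymal cells at 929, 563 and 962 in every library.

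In Ptprc-positive cells Igf1 UMIs came mostly from cells with macrophage genes. These were 17, 32 and 32 cells, or 2.95%, 10.7% and 10.1% of the class, and they held 348 (interval 272 to 438), 287 (257 to 320) and 540 (486 to 597) CPM. The other Ptprc-positive cells held 3.73, 2.63 and 7.15 CPM, close to the 1.43, 5.78 and 9.33 CPM of red cells. Over the class Igf1 was higher in the library labelled Tbx1neo2/neo2 (log2 1.07, interval 0.76 to 1.38) and in the Foxn11089/1089 library (2.19, interval 1.89 to 2.50), but without the macrophage set the ratios were -0.50 and 0.94. The share of macrophage-set cells was above control in both compared libraries, and the level inside the set was highest in the Foxn11089/1089 library.

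Epithelial Igf1 was low in the first 2 libraries and 2-fold or more higher in the Foxn11089/1089 library (1.55, interval 1.36 to 1.75). Mesenchymal marker RNA was also higher in that library. It was above control in the library labelled Tbx1neo2/neo2 as well, and its part in the epithelial Igf1 values was not tested. The summed level of 6 mesenchymal markers in Epcam-positive cells was 49.5, 81.0 and 172 CPM, against 3277, 4352 and 3833 CPM in Pdgfra-positive cells and 23.2, 45.3 and 40.1 CPM in red cells. Among the 1543, 241 and 2257 Epcam-positive cells with no UMI of those markers, Igf1 was at 1.36, 2.28 and 2.81 CPM (35, 22 and 130 UMIs), with a ratio of 1.04 in the Foxn11089/1089 library. Red cells held Igf1 at 1.43, 5.78 and 9.33 CPM, so these epithelial levels were not above the red-cell level in any library. With a class rule of at least 1 Epcam UMI and none of the other 3 class genes, the ratio was 0.59, under 2-fold.

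**Figure D2:**
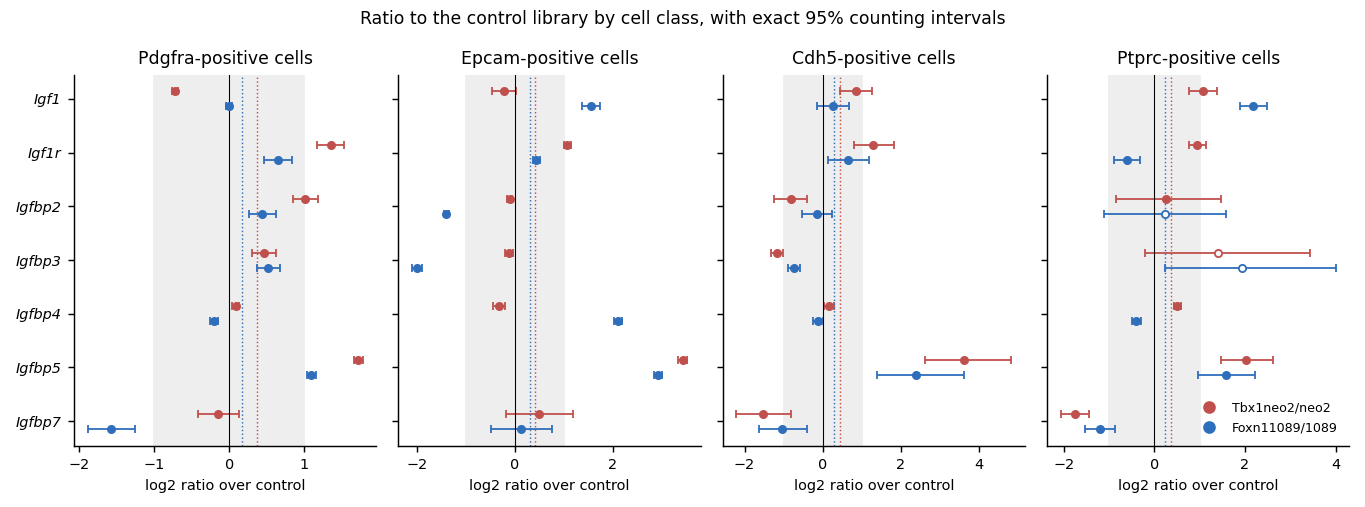
Log2 ratio of each gene over the control library in each cell class, with 95% counting intervals and a separate horizontal range per panel. The grey band covers differences under 2-fold, dotted lines give the median of all genes, and open points have under 30 UMIs. Igfbp5 lies right of the band in Pdgfra- and Epcam-positive cells in both comparisons, and Igfbp2 and Igfbp3 lie left of it in Epcam-positive cells of the Foxn11089/1089 library.

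Igf1r, the receptor, was present in every class and highest in epithelium. Epcam-positive cells held 70.1, 147 and 94.9 CPM, Cdh5-positive cells 43.6, 106 and 67.7, Pdgfra-positive cells 39.5, 101 and 62.0 and Ptprc-positive cells 26.3, 50.8 and 17.4. Red cells were far below, at 0.86, 3.18 and 2.67 CPM. The order of the classes was again the same in the 3 libraries, and epithelium exceeded endothelium by 1.61, 1.39 and 1.40 times.

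The receptor was higher in the library labelled Tbx1neo2/neo2 in mesenchyme (1.35, interval 1.18 to 1.54), epithelium (1.07, interval 1.0 to 1.14), endothelium (1.28) and hematopoietic cells (0.95). Relative to the median of all genes in the same class these differences were 0.98, 0.67, 0.84 and 0.59. In the Foxn11089/1089 library they stayed under 2-fold, at 0.65, 0.44, 0.64 and -0.60 over control. The share of Epcam-positive cells with an Igf1r UMI at 2000 UMIs per cell was 13.3%, 25.2% and 14.9%.

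The epithelial sets differed in size between libraries. Cells with at least 2 cortical genes were 55.6%, 55.8% and 9.75% of the class (1094, 447 and 393 cells), and cells with medullary genes 16.4%, 10.1% and 5.98% (323, 81 and 241 cells). Cortical genes such as Psmb11 and Ccl25 are known to depend on Foxn1, so the set is not chosen independently of the Foxn11089/1089 genotype. Within the epithelium Igf1r was higher in cells with cortical genes, at 82.2, 183 and 109 CPM, than in the others, at 57.5, 109 and 93.6 CPM. Cells with parathyroid genes held the receptor at a higher level still. They reached 125 CPM in 26 control cells against 69.6 in the remaining epithelium, and 177 CPM in 387 Foxn11089/1089 cells against 82.4, and the library labelled Tbx1neo2/neo2 had 0 such cells. Mesenchymal Igf1 and epithelial Igf1r thus differed in opposite directions in the library labelled Tbx1neo2/neo2.

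Igfbp2, whose product binds IGFs and is abundant in fetal tissues, was highest in Epcam-positive cells in the first 2 libraries. There it stood at 188, 174 and 71.1 CPM, a ratio of -0.11 in the library labelled Tbx1neo2/neo2 and -1.40 (interval -1.45 to -1.35) in the Foxn11089/1089 library. The share of Epcam-positive cells with an Igfbp2 UMI at 2000 UMIs per cell was 29.1%, 30.7% and 13.5%. Epithelial cells with medullary genes had less of it than the others, at 78.6, 74.6 and 20.6 CPM against 209, 187 and 74.3. Cortical-set cells held 232, 185 and 88.8 CPM, so the Foxn11089/1089 library was lower than control in both sets (-1.39 in the cortical and -1.93 in the medullary set).

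Mesenchymal Igfbp2 ran the other way, at 44.7, 90.5 and 60.8 CPM, with a ratio of 1.02 (interval 0.85 to 1.19) in the library labelled Tbx1neo2/neo2. Contractile-set cells had more of it in each library, at 68.3, 153 and 111 CPM against 40.2, 70.8 and 51.5 in the remaining mesenchyme, where the ratio was 0.82. Other settings gave ratios down to 0.74, under 2-fold. Endothelial Igfbp2 was 83.5, 47.2 and 74.9 CPM. Ptprc-positive cells had few Igfbp2 UMIs (11, 21 and 11), or 0.96, 1.15 and 1.12 CPM against 0.57, 0.58 and 1.83 in red cells.

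Igfbp3, the gene of the main IGF carrier of adult serum, was led by endothelium. Cdh5-positive cells held 569, 252 and 340 CPM, which was 9.42, 3.25 and 4.20 times the class next to them in the order. The endothelial level was lower in the library labelled Tbx1neo2/neo2 (-1.17, interval -1.34 to -1.01) and lower by less than 2-fold in the Foxn11089/1089 library (-0.74, interval -0.89 to -0.59). At 2000 UMIs per cell, 56.3%, 10% and 44.9% of Cdh5-positive cells had an Igfbp3 UMI. Fewer endothelial cells carried it in the library labelled Tbx1neo2/neo2, and the tenth of cells with most Igfbp3 held 83.1% of its UMIs there, against 49.4% in control and 30.7% in the Foxn11089/1089 library.

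Most Cdh5-positive cells of the library labelled Tbx1neo2/neo2 formed a set that the control lacked. It was defined, after the values were seen, by at least 2 of Eln, Fbln5, Htra1 and Gja4, genes of elastic fibres, of a secreted protease and of an arterial gap junction protein. It held 51 of 90 cells (56.7%) in that library, 0 of 48 in control and 3 of 107 in the Foxn11089/1089 library, counting cells with at least 2000 UMIs. In the library labelled Tbx1neo2/neo2, Eln stood at 10006 CPM in the set and 33.6 outside it, Pecam1, an endothelial adhesion gene, at 1031 and 544, and Pdgfra at 0.98 and 2.80. Hemoglobin genes stood at 16835.5 CPM in the set and 227 outside it, against 19075 in control Cdh5-positive cells. Median UMIs per cell were 18623 in the set and 53303 outside it. The part of either in the contrasts below was not tested. Igfbp3 was low in the set, at 34.4 CPM against 340 in the other cells, whose ratio over control was -0.74 (interval -0.91 to -0.58). A single cell outside the set held 327 of the 850 Igfbp3 UMIs of those other cells. The ratio without that cell was not computed. Igf1 and Igfbp7 were low in the set as well, at 20.6 against 166 CPM and 0.98 against 18.0 CPM, whereas Igfbp4 stood at 973 against 798 CPM and Igfbp5 at 376 against 11.6 CPM.

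Epithelial Igfbp3, taken over the whole class, was also lower in the Foxn11089/1089 library. It reached 60.4, 55.5 and 15.03 CPM, a ratio of -0.12 in the library labelled Tbx1neo2/neo2 and -2.01 (interval -2.10 to -1.91) in the Foxn11089/1089 library. In the first 2 libraries it was sparse in medullary-set cells, at 5.25 and 4.69 CPM, against 71.1 and 61.8 in the rest of the epithelium. That contrast was small in the Foxn11089/1089 library, at 13.2 against 15.1 CPM. Within the medullary set Igfbp3 was therefore higher than control there (1.33, interval 0.70 to 2.0, from 29 and 79 UMIs), opposite to the whole class and to Igfbp2 in the same set (-1.93). Pdgfra-positive cells held 56.3, 77.5 and 80.9 CPM, and Ptprc-positive cells only 4, 17 and 13 UMIs.

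Igfbp4, whose product withholds IGFs until PAPPA cleaves it, was highest in endothelium and next in mesenchyme. Cdh5-positive cells held 757, 849 and 696 CPM and Pdgfra-positive cells 629, 668 and 546 CPM, with ratios between -0.20 and 0.17 in these classes. Ptprc-positive cells held 191, 271 and 144 CPM. These 3 classes differed from control by less than 2-fold in both comparisons.

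The epithelium departed from that picture. Epcam-positive cells held Igfbp4 at 36.1, 28.8 and 155 CPM, ratios of -0.32 and 2.10 (interval 2.01 to 2.18), while red cells held 4.87, 8.09 and 11.4 CPM. The share of Epcam-positive cells with an Igfbp4 UMI at 2000 UMIs per cell was 6.81%, 5.99% and 24.6%. Without the cells that had a UMI of the 6 mesenchymal markers, the levels were 28.7, 20.2 and 138 CPM and the ratios -0.51 and 2.27, so the higher level of the Foxn11089/1089 library was as large without those cells. Parathyroid-set cells held 171 CPM in control and 235 in the Foxn11089/1089 library, against 34.8 and 142 in the rest of the epithelium, and cortical-set cells 17.8, 20.8 and 100 CPM.

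Igfbp5, whose product binds matrix and can raise or lower IGF action, was higher than control in mesenchyme and epithelium of both compared libraries, with endothelial and hematopoietic values that rest on few UMIs. Pdgfra-positive cells held 375, 1241 and 803 CPM, ratios of 1.73 (interval 1.67 to 1.78) and 1.10 (interval 1.04 to 1.16). The second ratio stayed past 2-fold in 9 of 12 alternatives, with a lowest value of 0.85. Epcam-positive cells held 33.1, 356 and 250 CPM, or 10.7-fold and 7.57-fold more than control (3.43, interval 3.34 to 3.52, and 2.92, interval 2.83 to 3.01). Cdh5-positive cells held 9.68, 117 and 50.2 CPM and Ptprc-positive cells 2.70, 11.1 and 8.07 CPM. The order from mesenchyme to epithelium, endothelium and hematopoietic cells was the same in the 3 libraries. At 2000 UMIs per cell, the share with an Igfbp5 UMI was 41.7%, 67.3% and 60.6% in mesenchyme and 5.64%, 24.3% and 28.3% in epithelium.

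In hematopoietic cells the Igfbp5 level was below that of red cells, which held 3.43, 16.2 and 14.1 CPM. Red cells had fewer UMIs per cell, and the part of free RNA in the Ptprc ratios of 2.03 and 1.58 was not tested. Above the red-cell level stood the 32 macrophage-set cells of the library labelled Tbx1neo2/neo2, at 53.0 CPM (62 UMIs). A single Ptprc-positive cell held 51 of the 202 Igfbp5 UMIs of the class in that library. Whether that cell belongs to the macrophage set was not checked, so the 53.0 CPM may not describe the set as a whole. In endothelium the control value rests on 8 UMIs, giving wide intervals for the ratios of 3.6 (2.60 to 4.82) and 2.37 (1.37 to 3.6). The Cdh5-positive cells outside the Eln set held 11.6 CPM in the library labelled Tbx1neo2/neo2, a ratio of 0.25 (interval -0.91 to 1.59), so a difference was not detectable there at this depth. The Foxn11089/1089 ratio was 2.32 without the set, but it was 0.07 when cells with any UMI of the other 3 class genes were left out. A single Cdh5-positive cell held 175 of the 269 Igfbp5 UMIs of the class in the Foxn11089/1089 library. The counting interval does not cover such a concentration in a cell, and the ratio without that cell was not computed. The 6 mesenchymal markers summed to 9.68, 71.6 and 194 CPM in Cdh5-positive cells, with 3 of the 6 at 0 in control, and their part in the Igfbp5 values was not tested.

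In mesenchyme the higher Igfbp5 ran across the sets compared. Cycling cells held 195, 861 and 476 CPM and the others 438, 1368 and 972. Mesenchymal cells of the Mgp set, a group defined by Mgp and other matrix genes, made up 18.7%, 49.4% and 15.5% of the class and held 545, 1513 and 984 CPM. Inside that set the ratios were 1.47 and 0.85, the second under 2-fold, and outside it 1.55 and 1.20, against 1.73 and 1.10 for the whole class.

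Epithelial Igfbp5 was spread unevenly over cells. The tenth of Epcam-positive cells with most of it held 76.9%, 76.1% and 57.2% of the UMIs, and the highest single cell had 34, 779 and 200 UMIs. Cortical-set cells held 23.0, 98.3 and 185 CPM and medullary-set cells 66.1, 249 and 382 CPM, and both sets were above control in both compared libraries, by 2.09 and 3.0 in the cortical and 1.91 and 2.53 in the medullary set. Thyroid-set cells, 89 in the library labelled Tbx1neo2/neo2, held 293 CPM, while parathyroid-set cells held 12.5 CPM in control and 71.8 in the Foxn11089/1089 library. Without Epcam-positive cells that had a UMI of the 6 mesenchymal markers, the levels were 24.6, 261 and 212 CPM and the ratios 3.41 and 3.11.

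A small group of epithelial cells in the library labelled Tbx1neo2/neo2 carried much of the Igfbp5. It was defined, after the values were seen, by at least 2 of Sox2, Foxa1, Foxa2, Shh and Irx5, genes known from the foregut and airway epithelium. The set held 30 of 801 cells (3.75%) in that library, 0 cells in control and 1 in the Foxn11089/1089 library, counting cells with at least 2000 UMIs. Igfbp5 reached 3716 CPM in it against 238 CPM in the other Epcam-positive cells, and Igfbp2 reached 571 against 161 CPM. Igfbp7 was higher in the set as well, at 14.5 against 0.78 CPM, and Igfbp3 lower, at 7.61 against 57.2 CPM. Foxn1 was at 0.69 CPM (1 UMI) in the set and 109 CPM outside it, Sox2 at 487 and 12.1, and Pdgfra at 2.08 and 2.60. Left without the set, epithelial Igfbp5 of the library labelled Tbx1neo2/neo2 was still above control by 2.85 (interval 2.76 to 2.94).

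**Figure D3:**
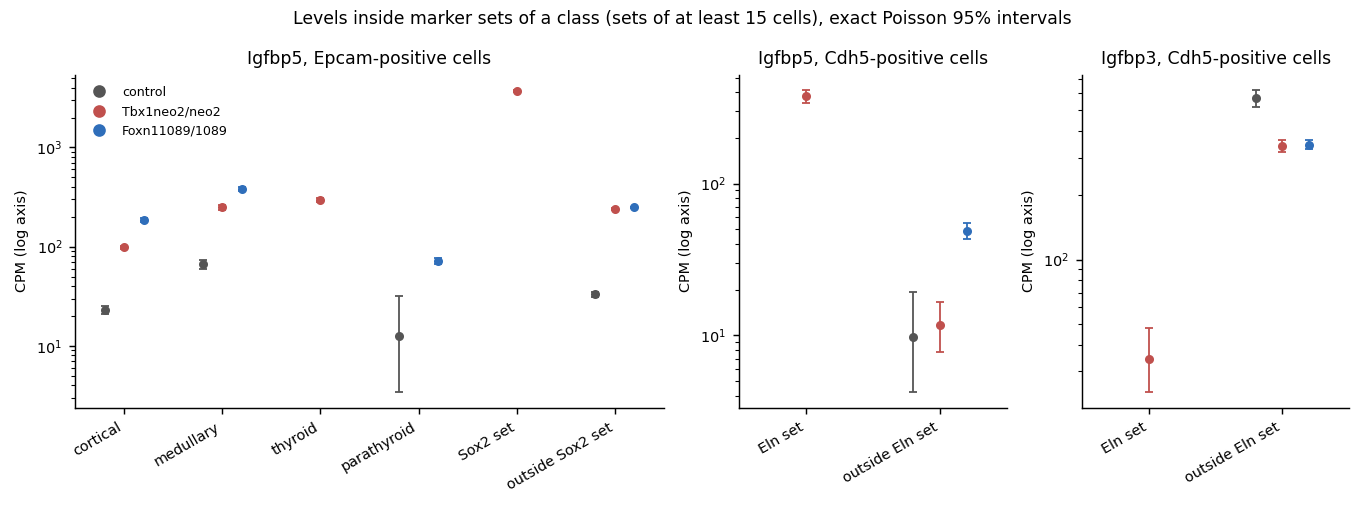
Igfbp5 in Epcam-positive cells by marker set, and Igfbp5 and Igfbp3 in Cdh5-positive cells in and outside the Eln set (CPM of summed UMIs, log axis, 95% counting intervals, sets of at least 15 cells). Igfbp5 of the library labelled Tbx1neo2/neo2 reaches 3716 CPM in the Sox2 set, and in the Eln set Igfbp5 is at 376 CPM and Igfbp3 at 34.4 CPM.

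Igfbp7 was low in epithelium, at 0.88, 1.25 and 0.96 CPM, and red cells held 0, 0 and 1 UMIs of it. Cdh5-positive cells held 37.5, 13.1 and 18.3 CPM (31, 46 and 98 UMIs), Ptprc-positive cells 24.4, 7.22 and 10.6 CPM and Pdgfra-positive cells 19.7, 17.8 and 6.61 CPM. It was lower than control in both compared libraries in endothelium (-1.52, interval -2.21 to -0.82, and -1.04, interval -1.63 to -0.41) and in hematopoietic cells (-1.76, interval -2.07 to -1.45, and -1.20, interval -1.54 to -0.87). At 2000 UMIs per cell, 5.56%, 1.34% and 1.26% of Ptprc-positive cells had an Igfbp7 UMI. Unclassed cells, which held the largest part of the Igfbp7 UMIs in the control and Tbx1neo2/neo2-labelled libraries, stood at 28.3, 33.9 and 8.59 CPM. The lower level thus did not extend to them in the library labelled Tbx1neo2/neo2. Over all kept cells Igfbp7 stood at 14.6, 13.5 and 3.70 CPM.

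Mesenchymal Igfbp7 was lower in the Foxn11089/1089 library (-1.58, interval -1.89 to -1.26) and close to control in the library labelled Tbx1neo2/neo2 (-0.14). That second value joined unlike parts. Inside the contractile set, whose marker levels differed between libraries as given above, the level was 17.3, 46.7 and 8.49 CPM, and outside the set 20.2, 8.77 and 6.26 CPM, with ratios outside of -1.20 (interval -1.53 to -0.87) and -1.69. The remaining Pdgfra-positive cells of both compared libraries were thus below control. Mesenchymal cells with little or no Pdgfra fall outside this class, and unclassed cells made up 39.1%, 47.4% and 25.5% of the kept cells.

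**Figure D4:**
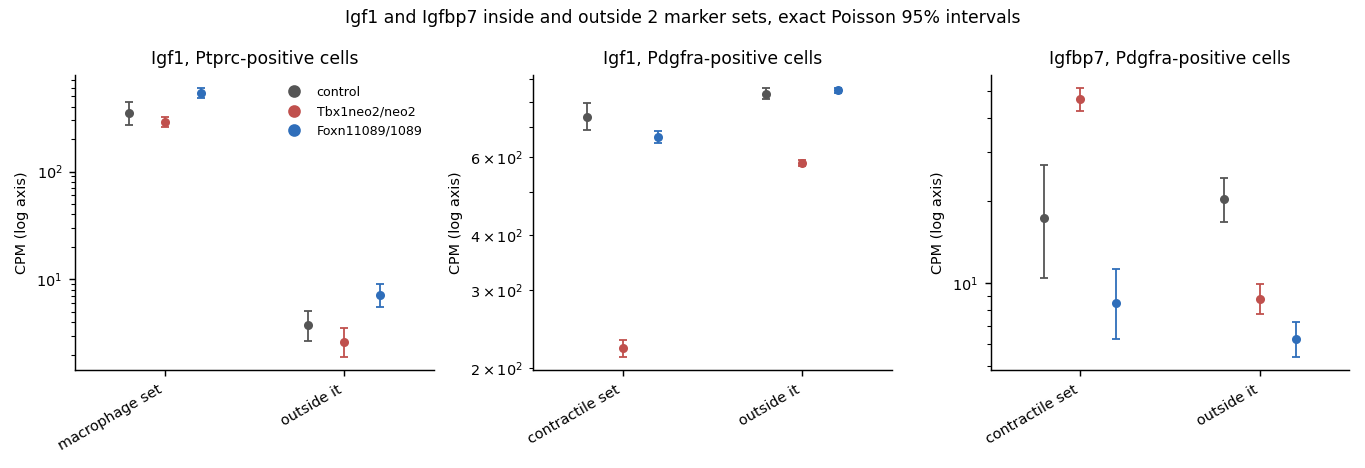
Igf1 in and outside the macrophage set of Ptprc-positive cells, and Igf1 and Igfbp7 in and outside the contractile set of Pdgfra-positive cells (CPM of summed UMIs, log axis, 95% counting intervals). Igf1 is 287 to 540 CPM in the macrophage set and 2.63 to 7.15 CPM outside it, and Igfbp7 of the library labelled Tbx1neo2/neo2 is 46.7 CPM in the contractile set and 8.77 CPM outside it.

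A list of 29 other genes of the pathway was counted in the same way. In the library labelled Tbx1neo2/neo2, 9 of 27 with enough UMIs were at least 2-fold higher and 1 lower in mesenchyme, 7 and 2 of 25 in epithelium, 6 and 2 of 17 in endothelium and 7 and 1 of 19 in hematopoietic cells. In the Foxn11089/1089 library the counts were 0 and 2 of 25, 12 and 4 of 27, 5 and 1 of 17 and 2 and 1 of 18. The shares of all genes past 2-fold in the same comparisons are those given for the members, and the 29 genes are a list of names, with no test.

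Igf2, the fetal ligand, stood at 861, 626 and 576 CPM in mesenchyme. In epithelium it stood at 40.2, 44.1 and 81.3 CPM, past 2-fold in the Foxn11089/1089 library. Mesenchymal marker RNA in Epcam-positive cells was also higher in that library, as given for Igf1, and its part in the Igf2 values was not tested. Igf2r, the receptor that clears IGF2, stood at 270, 221 and 135 CPM in mesenchyme. The insulin receptor gene Insr was past 2-fold in epithelium of the Foxn11089/1089 library (8.19, 14.8 and 17.4 CPM) and in endothelium of both compared libraries (4.84, 19.3 and 17.0 CPM, with 4 UMIs in control).

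Among the secreted proteases and their inhibitors, mesenchyme of the library labelled Tbx1neo2/neo2 had more Htra1 (4.59, 24.7 and 4.05 CPM), Htra3 (5.92 and 16.1 CPM in control and that library) and Pappa (13.3, 30.6 and 10.2 CPM). Pappa2 had 1 UMI in control and 56 in that library, and Stc1, which encodes an inhibitor of PAPPA, stood at 7.70 and 16.2 CPM. In epithelium Stc1 stood at 4.27, 9.23 and 8.57 CPM, and the related Stc2 at 15.7, 19.3 and 2.31 CPM, lower in the Foxn11089/1089 library. Endothelial Stc1 was lower in the library labelled Tbx1neo2/neo2 (31.5 and 14.8 CPM), and endothelial Htra1 had 1, 1003 and 54 UMIs, the gene being part of the definition of the Eln set. Epithelial Pappa, Htra1 and Htra3 also passed 2-fold in a compared library, all at 2.95 CPM or less.

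Other binding proteins and related matrix genes were mostly low. Igfbp6, which encodes a binding protein that prefers IGF2, stood at 5.07, 0.96 and 17.4 CPM in epithelium, lower in one compared library and higher in the other, and at 0.89 and 4.05 CPM in mesenchyme of the control and Tbx1neo2/neo2-labelled libraries. Igfbpl1 (0 and 38 UMIs) and Igfals (1 and 50 UMIs) were near absent from the epithelium of the control and Foxn11089/1089 libraries, and mesenchymal Igfbpl1 stood at 0.74 and 1.98 CPM in the control and Tbx1neo2/neo2-labelled libraries. Cyr61, a matrix protein gene related to the binding proteins, was past 2-fold in every class of the library labelled Tbx1neo2/neo2 and in all but mesenchyme of the Foxn11089/1089 library. It stood at 46.7, 170 and 132 CPM in epithelium, 30.2, 123 and 33.3 in mesenchyme and 19.4, 79.5 and 50.5 in endothelium.

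Downstream of the receptor, the adaptor gene Irs4 was higher in the epithelium of both compared libraries, at 6.83, 32.6 and 27.6 CPM. The adaptor genes Irs2 (34.4, 46.9 and 15.6 CPM) and Grb14 (14.1, 19.5 and 6.17 CPM) were lower in epithelium of the Foxn11089/1089 library, and Grb14 was lower in its mesenchyme too (9.77 and 3.55 CPM in control and that library). The PI3K subunit genes Pik3ca (13.05, 30.8 and 30.4 CPM) and Pik3r1 (33.3, 56.0 and 70.7 CPM) were higher in epithelium, Pik3r1 past 2-fold in the Foxn11089/1089 library alone. Pik3ca and Foxo1 passed 2-fold in endothelium, and Pik3ca, Akt1, Igf2bp2, Grb10, Irs2 and Foxo1 in hematopoietic cells, of the library labelled Tbx1neo2/neo2. Foxo1 passed it there in mesenchyme and epithelium as well. In the Foxn11089/1089 library Pik3ca and Foxo1 passed it in endothelium and Foxo1 in hematopoietic cells.

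Foxo3, a transcription factor gene that acts when AKT is inactive, was at least 2-fold lower than control in every class of both compared libraries. It stood at 39.4, 19.1 and 13.4 CPM in mesenchyme, 77.7, 30.1 and 19.1 in epithelium, 33.9, 8.81 and 7.27 in endothelium and 74.8, 29.1 and 17.9 in hematopoietic cells. In red cells, which are known to transcribe Foxo3, it stood at 20.6, 21.8 and 12.6 CPM and differed by less than 2-fold.

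The likeness of other genes to each member was described by Pearson's r of log2(CPM + 1) over the 12 sums of 4 classes in 3 libraries, which share libraries and depth, among 13526 genes with at least 300 UMIs. The patterns most like Igfbp3 were those of the basement membrane collagen genes Col4a1 (r = 0.9813) and Col4a2 (0.9805), followed by Prnp (0.975). Igfbp5 was most like Meg3 (0.990), a maternally expressed noncoding RNA, then Nicn1 (0.983) and Ddx50 (0.983). For Igf1 the nearest were Dnajc25 (0.976), Sec11a (0.964) and Sirt2 (0.963), and for Igf1r they were Tjap1 (0.968), Mical3 (0.948) and Klhl20 (0.946). Rhod (0.975), Nr2f6 (0.972) and Spry1 (0.972) were nearest to Igfbp2. Igfbp4 was followed by Inpp4b (0.959) and Zeb1 (0.939), and Igfbp7 by Tbxa2r (0.973), Gpatch3 (0.939) and Cat (0.933). Among the members themselves, the nearest pair was Igfbp2 and Igfbp3 (0.839), followed by Igfbp4 and Igfbp7 (0.785) and Igf1 and Igfbp4 (0.783).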

How the data were processed

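Thymic lobes of 3 genotypes were measured by 3′ single-cell RNA sequencing, 1 library each. Per the paper's methods, the authors processed the reads with Cell Ranger 3.0.0 on mm10. The deposited matrices hold unnormalized UMI counts for each gene and barcode, which total 82936619 (control), 137498422 (Tbx1neo2/neo2) and 204655055 (Foxn11089/1089). Intervals assume independent UMIs.

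A barcode stayed in if it had 200 genes or more and less than 20% of its UMIs on mitochondrial genes, which left 5932 of 6410, 5516 of 5759 and 11772 of 12447. UMIs were summed per class and scaled to 1000000 (Python 3.11.15, numpy 2.4.6, scipy 1.17.1, pandas 2.3.3). Intervals are exact Poisson for levels and conditional binomial for ratios, at 95%. No doublet caller was run: the 80% rule leaves out cells that mix class genes, and cells of high UMI number were left out in an alternative. Marker sets need at least 2 of their genes in cells thinned to 2000 UMIs. The summing and ratio steps were tested on simulated data. The members and lists, the 7 genes named in every class, the 29 pathway genes and the 3 genes most like each member were chosen with earlier results of these data known. In total 18 alternatives were run, 6 of them added after seeing the data. Some items of the pathway and likeness lists are counted but not reported here by name. Protein sequences were not used here.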

Additional observations from a re-analysis of the deposited data

Results flagged for a closer look

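Some members stood above control in one class and below it in another, with counting intervals on opposite sides of 0. The difference between the classes was not tested, since each genotype has 1 library. In the library labelled Tbx1neo2/neo2, Igf1 was 1.07 (log2) above control in Ptprc-positive cells and -0.72 in Pdgfra-positive cells. In the same library Igfbp2 was 1.02 in Pdgfra-positive and -0.82 in Cdh5-positive cells, and Igfbp3 was 0.46 in Pdgfra-positive and -1.17 in Cdh5-positive cells. In the Foxn11089/1089 library Igfbp2 was 0.44 in Pdgfra-positive and -1.40 in Epcam-positive cells, and Igfbp3 was 0.52 in Pdgfra-positive and -2.01 in Epcam-positive cells. Igfbp4 of that library ran the other way, 2.10 in Epcam-positive and -0.40 in Ptprc-positive cells.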

How the results depend on the processing

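Of 56 ratios, 24 were at least 2-fold, and all 24 kept their sign under 12 alternatives to the filters, class rules and scaling, 13 of them staying past 2-fold under each. Among 6 further alternatives chosen after seeing the data, Igf1 in Ptprc-positive cells of the library labelled Tbx1neo2/neo2 turned to -0.50 without the macrophage set. The number of members past 2-fold moved by more than 1.5 times in 4 of the 8 comparisons, and by 1 member at most in the library labelled Tbx1neo2/neo2 otherwise, where Pdgfra-positive cells gave 2 or 3, Cdh5-positive cells 3 to 5 and Ptprc-positive cells 2 to 4. In the Foxn11089/1089 library it fell from 2 to 1 in Pdgfra-positive cells with at least 2 UMIs and no condition on the other 3 class genes, with median-of-ratios size factors and with the mean of per-cell CPM. In Epcam-positive cells of the library labelled Tbx1neo2/neo2 it fell from 2 to 1 under the same 3 settings. In Cdh5-positive cells of the Foxn11089/1089 library it fell from 2 to 0 with at least 1 UMI and none of the other 3, and without the 5% of cells with most UMIs, where Igfbp7 was at -0.92 and Igfbp5, at 1.02, no longer had the minimum of 30 UMIs. In Ptprc-positive cells of that library it rose from 3 to 5 with at least 2 UMIs and no condition on the other 3. With 1 library per genotype, differences between genotypes and between libraries cannot be told apart. No paired analysis was possible because each genotype has 1 library. The endothelial values rest on 51 control cells.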
